A study of Mus musculus with 3 samples.

Results

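Collagen chain genes were examined in mouse mammary tumors that carried a GATA-3 retrovirus, as probes whose symbol in the platform annotation had the form Col, number, a, number. This rule found 61 probes of 36 genes, out of 38976 probe rows and 15056 named genes on the array. The mouse RefSeq table held 44 such genes, and 8 of them (Col6a3, Col6a4, Col6a5, Col12a1, Col20a1, Col22a1, Col24a1 and Col28a1) were not analysed here. Of the 36 genes, 19 had 1 probe, 11 had 2, 5 had 3 and Col25a1 had 5. The probes' sequences and places in the transcripts were not used here.

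Collagens are secreted proteins of 3 chains wound into a triple helix. Fibrillar collagens (types I, II, III, V, XI, XXIV and XXVII) assemble into banded fibrils that give tissue its tensile strength, and in mammary tumors are laid down mostly by stromal fibroblasts. Type IV collagen forms the sheet-like network of basement membranes under epithelium and around vessels. The other classes decorate fibrils, form beaded filaments, anchor basement membranes or span the cell membrane.

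The study compared tumors that express GATA-3, a transcription factor of the luminal mammary lineage, with tumors that carry the vector alone. Cells cultured from MMTV-PyMT carcinomas, which arise from a viral oncogene under a mammary promoter and here carried no fluorescent marker, received full-length GATA-3 in the PMIG retrovirus, which also encodes GFP behind an IRES, or the control virus. Infected cells grew for 6 weeks in cleared fat pads of wild-type mice, so an outgrowth can also hold stroma of the host. The RNA is that of whole outgrowths, in which fewer cells of a type and less RNA per cell cannot be told apart.

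There was 1 group of 3 arrays with 2 channels, each setting RNA of a GATA-3 tumor (Cy5) against RNA of a control tumor (Cy3) in the same dye order. A positive log2 ratio was read as higher in the GATA-3 tumor. That direction was taken from the order in the labels and a positive Gata3 ratio of 1 probe (0.80 ± 0.06, SD, n = 3). The ratio is not extreme on the array: 87.9% of all probes lay at or below the similar mean of Col9a2 (0.81). The direction is not stated, and every higher and lower would swap if it were the opposite. Arrays are numbered in accession order; array 1 has another title prefix than arrays 2 and 3. Nothing says whether the arrays held separate animals, so p-values measure only the spread between arrays, which may be technical. An effect of a probe or dye that recurs on each array is not separated from expression. Across the 61 collagen probes, which share arrays and dyes, the ratios of arrays 2 and 3 had a Pearson's r of 0.95 and those of array 1 had 0.85 with array 2 and 0.84 with array 3.

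Collagen probes were lower more often than higher. Of the 61, 25 (41.0%) were lower and 16 (26.2%) higher in the GATA-3 tumors, and 20 did not pass the threshold. The call is limma's moderated test of the mean ratio against 0, at a Benjamini-Hochberg adjusted p below 0.05 over all 38975 complete probe rows. By that rule 57.3% of all probe rows were called, 25.9% lower and 31.4% higher. The share of higher collagen probes was thus somewhat below that of all probes, and the share of lower ones was above it. No test of these differences was made, since the members of a list are not replicates. The median of the probe means was -0.19 over the collagens and -0.02 over all probes. Collagen probes all carry a gene name. Of the 22972 complete probe rows with a name, 28.5% were lower and 31.7% higher, with a median of -0.05. The collagen median was -0.21 on array 1, -0.24 on array 2 and -0.23 on array 3. Of the probes, 47 had 1 sign on all arrays, as did 76.7% of all probe rows. With a mean of at least 1 in size, 1 collagen probe was higher and 4 were lower, against 5.53% and 2.7% of all probe rows. Without array 3 there were 23 calls, 6 higher (9.84%) and 17 lower (27.9%), where that fit called 17.8% of all probe rows higher and 12.3% lower. Without array 2 there were 9 higher (14.8%) and 19 lower (31.1%), against 23.6% and 15.4%. Averaged to genes before the fit, 13 of 36 collagen genes were lower and 6 higher, where 24.1% and 31.7% of all rows of that fit were.

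**Figure D1:**
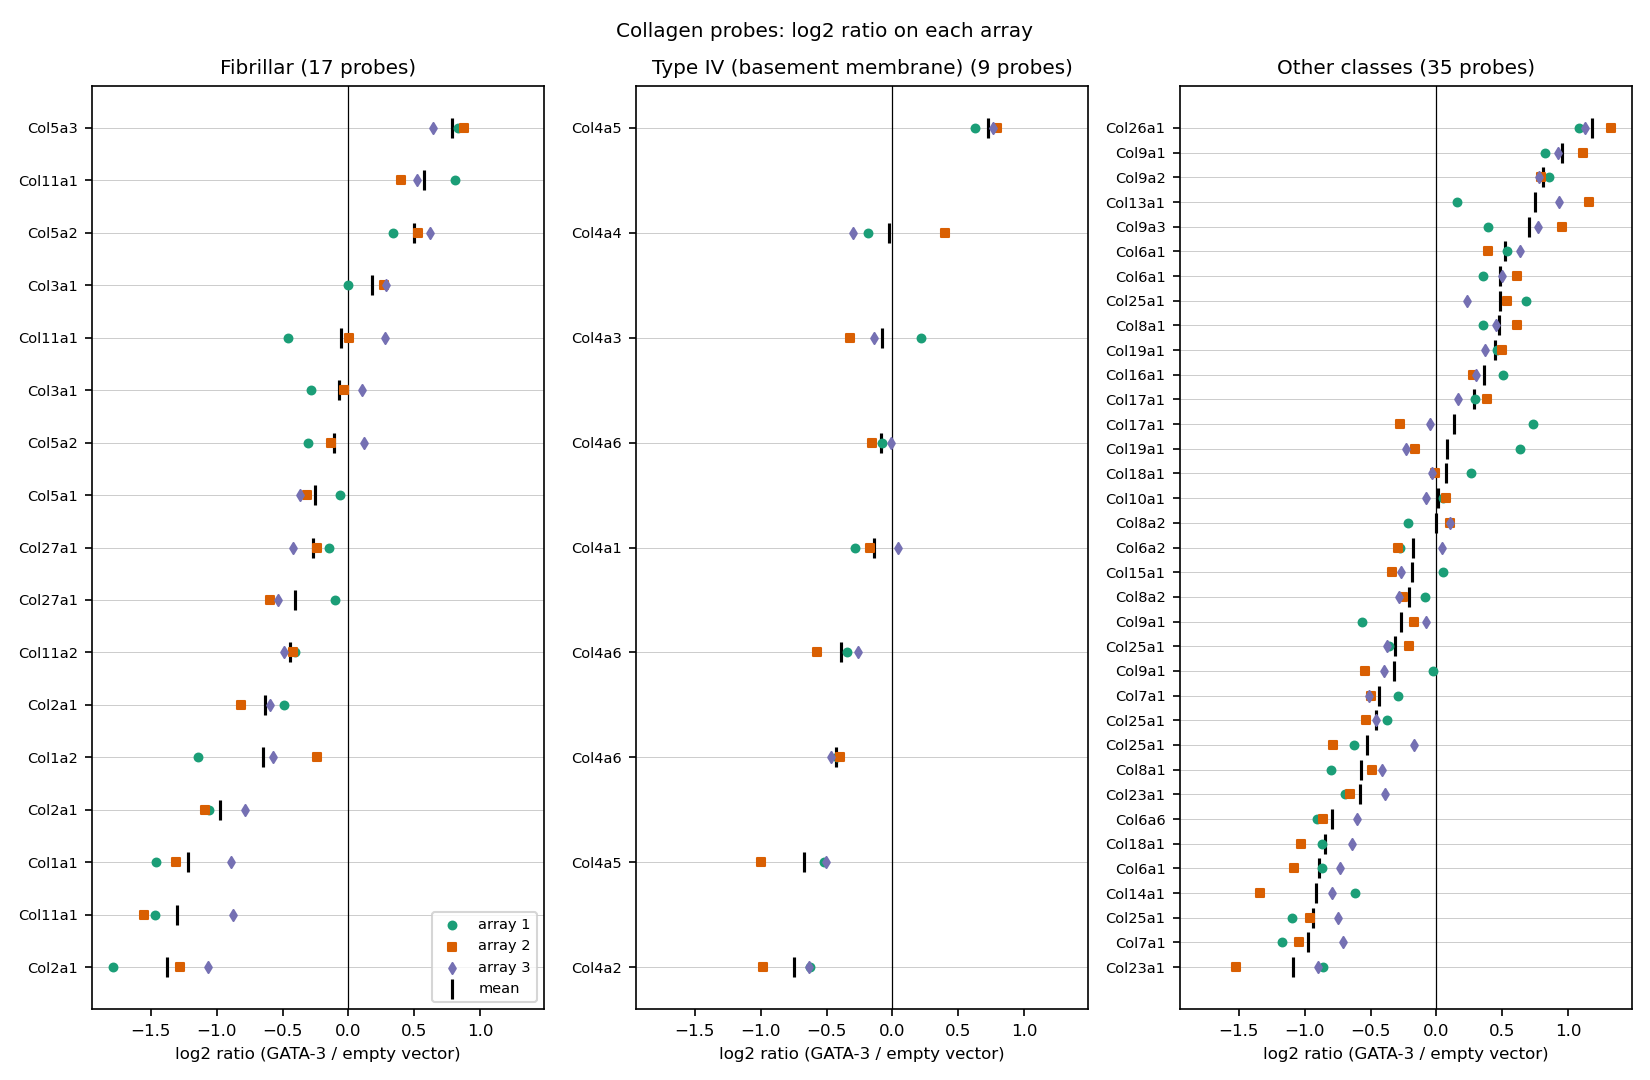
Log2 ratio of each collagen probe on arrays 1, 2 and 3 (points) with its mean (bar), in fibrillar, type IV and other classes, sorted by the mean; a gene with several probes appears once for each. Of the 61 means, 40 are below 0 and 21 above, and 47 probes have 1 sign on all arrays.

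Fibrillar collagens held the most negative ratios of the family. Of the 17 probes of 10 fibrillar genes, 8 were lower, 3 were higher and 6 did not pass the threshold, with a median of -0.27. Thus 47.1% were lower and 17.6% higher, against 25.9% and 31.4% of all probe rows. The lower ones belonged to Col1a1, Col1a2, Col2a1, Col11a1, Col11a2 and Col27a1. The higher ones belonged to Col5a2, Col5a3 and Col11a1, the last of which thus had probes called in both directions.

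Col1a1 and Col1a2 encode the chains that make up type I collagen, the main fibril of connective tissue. Col1a1 had log2 ratios of -1.46, -1.31 and -0.89 on arrays 1, 2 and 3. Its mean of -1.22 ± 0.29 (SD, n = 3) is a 2.33-fold lower signal (limma, adjusted p = 0.00319). All 3 arrays were thus clearly negative, and 1.16% of all probes had a mean as low or lower. Col1a2 had -1.14, -0.24 and -0.57, with a mean of -0.65 ± 0.46 (1.57-fold; limma, adjusted p = 0.0313). It was negative on every array too, but its ratio on array 1 was far from that on array 2, and the call was lost without array 3. Both chains had 1 probe each. The difference between these probes, Col1a1 minus Col1a2, was -0.32, -1.08 and -0.32, or -0.57 ± 0.44 (exact sign-flip test, two-sided, p = 0.25, the smallest that 3 arrays can give). The RefSeq promoter window of Col1a2, 250 bases before to 50 after the start site (GRCm38.p6, chr6:4505368-4505667, plus strand), is shown because Col1a2 is the chain of type I with a window in the table. Capitals mark GC boxes (GGGCGG) and CCAAT boxes (CCAAT) on either strand, with 2 of each in the window.
Col1a2: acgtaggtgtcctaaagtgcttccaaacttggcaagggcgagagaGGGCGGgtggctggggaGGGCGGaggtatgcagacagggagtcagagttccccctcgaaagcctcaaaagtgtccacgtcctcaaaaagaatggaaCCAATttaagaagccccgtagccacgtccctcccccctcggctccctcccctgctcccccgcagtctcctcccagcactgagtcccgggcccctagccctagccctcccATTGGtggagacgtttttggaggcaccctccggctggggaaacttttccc

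The other fibril chains of soft connective tissue gave ratios of both signs. Col3a1, which forms fine fibrils with type I in skin and vessels, gave means of -0.07 ± 0.20 and 0.18 ± 0.16 with its 2 probes (limma, adjusted p = 0.597 and 0.169). The first probe had -0.28, -0.03 and 0.10 on the 3 arrays and the second -0.002, 0.27 and 0.28, so both lay around 0. Type V chains sit in the core of type I fibrils and set their width. Col5a1 had -0.07, -0.32 and -0.37, a mean of -0.25 ± 0.16 (limma, adjusted p = 0.0825). One Col5a2 probe had 0.34, 0.53 and 0.62 (mean 0.50 ± 0.14, adjusted p = 0.0102) and the other -0.31, -0.13 and 0.12 (mean -0.11 ± 0.21, adjusted p = 0.441). The first was positive on each array, though its call was lost without array 3. The probes differed by 0.60 ± 0.09 (limma over all probe pairs, adjusted p = 0.0131), a call lost without array 2 or array 3. Col5a3, the third type V chain, was the most positive fibrillar probe, with 0.83, 0.88 and 0.64. Its mean was 0.78 ± 0.13, a 1.72-fold higher signal (limma, adjusted p = 0.00334), and the call held without each array.

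Fibrillar chains best known from cartilage held the lowest collagen probes, 1 of Col2a1 and 1 of Col11a1, but not all of their probes were low. Col2a1, the main cartilage fibril chain, was lower with all 3 of its probes. One gave -1.79, -1.28 and -1.07, the lowest mean of any collagen probe at -1.38 ± 0.37 (2.61-fold; limma, adjusted p = 0.0032). The next gave -1.06, -1.09 and -0.78 (mean -0.98 ± 0.17) and the third -0.49, -0.81 and -0.60 (mean -0.63 ± 0.16). Every probe was negative on every array, and all 3 calls held without each array in turn. Col11a1, which nucleates cartilage fibrils, had probes in opposite directions. One gave -1.47, -1.55 and -0.88 (mean -1.30 ± 0.37, adjusted p = 0.00334). Another gave 0.81, 0.40 and 0.52 (mean 0.58 ± 0.21, adjusted p = 0.0101), a call lost without array 3, and the last was at -0.06 ± 0.37. The groups of array values of the outer probes did not overlap, and they differed by 1.87 ± 0.44 (limma over all probe pairs, adjusted p = 0.00195). Its partner chain Col11a2 had -0.41, -0.42 and -0.49, a mean of -0.44 ± 0.05 (adjusted p = 0.00943; lost without array 3). Col27a1, a fibrillar chain of growing cartilage, was at -0.41 ± 0.27 (adjusted p = 0.0409; lost without array 2 or array 3) and -0.27 ± 0.14 (adjusted p = 0.06).

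Type IV collagen was also mostly negative. Of 9 probes of the 6 type IV genes, 4 were lower, 1 was higher and 4 did not pass, with a median of the probe means of -0.14. With 1 array left out that median lay between -0.243 and -0.228. The shares were 44.4% lower and 11.1% higher, against 25.9% and 31.4% of all probe rows. The lower probes were those of Col4a2, Col4a5 and Col4a6 (2 probes), and the higher one was the other Col4a5 probe. Of the 9 means, 8 were below 0.

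Col4a1 and Col4a2 are the chains of the common basement membrane trimer and lie head to head. Col4a2 had -0.62, -0.98 and -0.64, a mean of -0.75 ± 0.20 (1.68-fold; limma, adjusted p = 0.00471), and kept the call without each array. Col4a1 had -0.28, -0.17 and 0.04, a mean of -0.14 ± 0.17 (adjusted p = 0.284). The values of Col4a2 all lay below those of Col4a1: Col4a1 minus Col4a2 was 0.34, 0.81 and 0.68, or 0.61 ± 0.24 (exact sign-flip test, two-sided, p = 0.25, the smallest possible). Each gene had 1 probe, and 48.3% of all pairs of probes of 1 gene also differed on this array. The gap between these 2 probes thus cannot be read as a difference between the genes. Their RefSeq promoter windows are shown because they overlap by 78 bases, with start sites 21 bases apart, while the ratios of the single probes lay apart. Col4a1 is read from the minus strand (GRCm38.p6, chr8:11312777-11313076) and Col4a2 from the plus strand (chr8:11312555-11312854). Capitals again mark GC and CCAAT boxes on either strand; the windows held 1 and 3 GC boxes and 1 CCAAT box each.
Col4a1: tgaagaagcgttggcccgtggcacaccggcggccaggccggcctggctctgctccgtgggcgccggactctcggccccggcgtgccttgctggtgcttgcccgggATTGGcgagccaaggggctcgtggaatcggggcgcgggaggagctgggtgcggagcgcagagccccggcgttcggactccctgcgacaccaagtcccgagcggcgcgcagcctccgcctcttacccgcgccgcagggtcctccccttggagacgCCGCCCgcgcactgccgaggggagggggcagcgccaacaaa
Col4a2: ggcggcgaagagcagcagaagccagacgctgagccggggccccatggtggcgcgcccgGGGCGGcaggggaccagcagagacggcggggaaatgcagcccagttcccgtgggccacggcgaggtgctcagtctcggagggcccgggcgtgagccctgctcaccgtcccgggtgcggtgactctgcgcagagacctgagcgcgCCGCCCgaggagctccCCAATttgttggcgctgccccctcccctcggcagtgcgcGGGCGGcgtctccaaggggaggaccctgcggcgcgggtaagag

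Col4a3, Col4a4, Col4a5 and Col4a6 encode chains of more restricted basement membranes. Col4a3 had 0.22, -0.32 and -0.14 (mean -0.08 ± 0.27) and Col4a4 -0.19, 0.40 and -0.30 (mean -0.03 ± 0.38), each with both signs among the arrays (limma, adjusted p = 0.612 and 0.889). One Col4a5 probe had 0.63, 0.79 and 0.76 (mean 0.73 ± 0.09, adjusted p = 0.00337). The other had -0.52, -0.997 and -0.50 (mean -0.67 ± 0.28, adjusted p = 0.0099). Each kept its call without each array, and their difference of 1.40 ± 0.34 passed the test (limma over all probe pairs, adjusted p = 0.00219), so the gene as a whole cannot be called higher or lower. Of the Col4a6 probes, one had -0.42, -0.40 and -0.47 (mean -0.43 ± 0.04, adjusted p = 0.00981) and another -0.34, -0.57 and -0.26 (mean -0.39 ± 0.16, adjusted p = 0.0236). The third was at -0.08 ± 0.07 (adjusted p = 0.436), so all Col4a6 means were negative; both calls were lost without array 3, and the second also without array 2. Col4a5 and Col4a6 are a head-to-head pair too, on the X chromosome, and their windows are shown for comparison with the pair above. Their start sites in the table are 1343 bases apart (GRCm38.p6, chrX:141475169-141475468, plus strand, and chrX:141474027-141474326, minus strand). Capitals mark GC boxes, CCAAT boxes and, in Col4a6, 2 matches to a GATA motif on either strand (letters AGATAA, else letters TGATAA, else letters AGATAG, else letters TGATAG).
Col4a5: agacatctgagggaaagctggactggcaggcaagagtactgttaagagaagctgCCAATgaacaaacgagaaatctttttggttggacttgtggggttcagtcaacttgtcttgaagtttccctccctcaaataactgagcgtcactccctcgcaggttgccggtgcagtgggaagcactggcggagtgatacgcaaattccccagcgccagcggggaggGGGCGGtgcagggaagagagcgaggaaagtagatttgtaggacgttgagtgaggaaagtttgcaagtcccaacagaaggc
Col4a6: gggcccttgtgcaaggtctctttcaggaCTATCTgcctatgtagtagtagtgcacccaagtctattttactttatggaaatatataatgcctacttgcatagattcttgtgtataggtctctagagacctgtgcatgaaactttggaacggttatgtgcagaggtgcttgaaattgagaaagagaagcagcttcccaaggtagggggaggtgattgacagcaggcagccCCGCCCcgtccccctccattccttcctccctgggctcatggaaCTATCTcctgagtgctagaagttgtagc

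Promoter windows were in the table for 29 of the 36 genes. At least 1 window held a GC box in 20 of them (69.0%), a CCAAT box in 12 (41.4%), a TATA box (TATAAA) in 5 (17.2%) and a GATA motif in 5 (17.2%). Counted in the same way over all 27025 genes of the table, 38.2% held a GC box, 41.1% a CCAAT box, 15.7% a TATA box and 33.0% a GATA motif. Counted by window, these shares were 35.7%, 37.4%, 13.6% and 29.8% of 32851. These are matches of letters in short windows, and a GATA match is no evidence of binding.

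**Figure D2:**
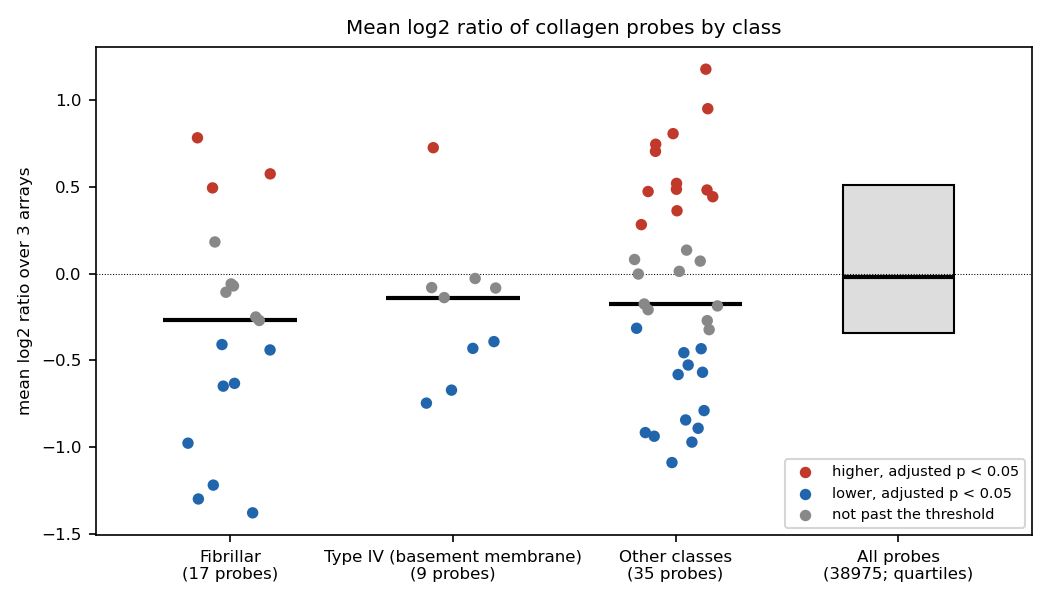
Mean log2 ratio over 3 arrays of each collagen probe by class, with the class median (bar) and, for all 38975 probes, the box from the first to the third quartile (-0.34 to 0.51) with its median. The class medians are -0.27 (fibrillar), -0.14 (type IV) and -0.17 (other), and each class holds probes on both sides of 0.

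The remaining classes were split in direction. Of 35 probes of 20 genes, 12 were higher, 13 were lower and 10 did not pass, with a median of -0.17. That is 34.3% higher and 37.1% lower, against 31.4% and 25.9% of all probe rows. Averaged to genes the median was -0.02.

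Collagens of the FACIT group, which sit on the surface of fibrils, were higher in most of the calls. Of 9 probes of 6 genes, 5 were higher (55.6%) and 1 was lower (11.1%), with a median of 0.36. Of all probe rows, 31.4% were higher and 25.9% lower. The type IX chains, which coat cartilage fibrils, gave 3 of the higher ones. Col9a2 had 0.86, 0.79 and 0.78, a mean of 0.81 ± 0.04 (1.75-fold; limma, adjusted p = 0.00319). Col9a3 had 0.39, 0.95 and 0.77, a mean of 0.71 ± 0.28 (adjusted p = 0.00882; lost without array 3). A Col9a1 probe had 0.82, 1.11 and 0.93, a mean of 0.95 ± 0.14 (1.93-fold; adjusted p = 0.00319), while its others were at -0.27 ± 0.26 and -0.32 ± 0.27. The single probes of Col9a2 and Col9a3 and 1 of the Col9a1 probes were thus positive on every array. That Col9a1 probe differed from its others, which were negative on every array (limma over all probe pairs, adjusted p = 0.00209 and 0.00327). Averaged over its probes, Col9a1 was at 0.12 ± 0.04 and not called (limma, adjusted p = 0.242). Col16a1 and Col19a1, minor chains related to this group, were at 0.36 ± 0.13 and, for 1 of 2 probes, 0.44 ± 0.07, both lost without array 2 or array 3. Col14a1, which binds type I fibrils in soft tissue, was the lower one, with -0.62, -1.34 and -0.79 and a mean of -0.92 ± 0.38 (1.89-fold; adjusted p = 0.00711).

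Type VI collagen forms beaded filaments around cells and near basement membranes. Col6a6 was lower at -0.91, -0.86 and -0.60 (mean -0.79 ± 0.16; limma, adjusted p = 0.00358). Col6a2 had -0.28, -0.29 and 0.04 (mean -0.17 ± 0.19, adjusted p = 0.207). Of the Col6a1 probes, 2 were positive on every array, at 0.49 ± 0.13 and 0.52 ± 0.12, and 1 was negative, with -0.87, -1.08 and -0.73 (mean -0.89 ± 0.17, adjusted p = 0.00324). The difference between the positive ones was -0.03 ± 0.22 and not called (limma over all probe pairs, adjusted p = 0.872). They differed from the negative one by 1.38 ± 0.27 and 1.41 ± 0.05 (adjusted p = 0.00199 and 0.00195). Both positive calls were lost without array 3, and that at 0.49 without array 2 as well.

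Collagens that tie epithelium to its basement membrane went different ways. Col7a1, the chain of the anchoring fibrils below skin epithelium, was lower with both probes. One had -1.17, -1.04 and -0.71 (mean -0.97 ± 0.24; limma, adjusted p = 0.00338) and the other -0.29, -0.50 and -0.51 (mean -0.43 ± 0.12, adjusted p = 0.0137; lost without array 2 or array 3). Col17a1, a transmembrane collagen of hemidesmosomes, was at 0.28 ± 0.11 (adjusted p = 0.046, lost whichever array was left out) and 0.14 ± 0.53. Col18a1, a heparan sulfate collagen of basement membranes that gives rise to endostatin, had 1 probe at -0.87, -1.03 and -0.64 (mean -0.84 ± 0.20, adjusted p = 0.00359) and another at 0.07 ± 0.17. The related Col15a1 was at -0.19 ± 0.21 (adjusted p = 0.198), positive on array 1 and negative on arrays 2 and 3.

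Transmembrane collagens, which stand on the cell surface and can be shed, gave 6 lower and 3 higher of 10 probes of 4 genes. Over all probe rows, 25.9% were lower and 31.4% higher. The 6 lower probes were all of Col23a1 and Col25a1. Averaged to genes, 2 were lower, 1 higher and 1 not called, with a median of -0.07. Over all rows of the gene fit, 24.1% were lower and 31.7% higher. Col23a1 was lower with both probes, at -0.86, -1.52 and -0.90 (mean -1.09 ± 0.37; limma, adjusted p = 0.00446) and at -0.70, -0.66 and -0.39 (mean -0.58 ± 0.17). Of the 5 probes of Col25a1, known from neurons, 4 were lower, from -0.94 ± 0.18 to -0.32 ± 0.09, and 1 was higher at 0.48 ± 0.23. The lowest of these had -1.10, -0.96 and -0.75 and was the only one of the 5 whose call held without each array; it is annotated to another transcript accession than the other probes. Col13a1, a collagen of cell junctions, had 0.15, 1.16 and 0.93 (mean 0.75 ± 0.53, adjusted p = 0.0291), with array 1 far below the others, and lost the call without array 2 or array 3.

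The highest collagen ratio was that of Col26a1, a short collagen with an EMI domain. It had 1.08, 1.33 and 1.13, all above the highest of the other collagen probe means (0.95), and a mean of 1.18 ± 0.13 (2.27-fold; limma, adjusted p = 0.00319). Of all probes, 98.1% had a mean as low or lower. Short-chain network collagens, which form lattices in vessel walls and the growth plate, were near 0 for Col10a1 (0.01 ± 0.08) and Col8a2 (-0.21 ± 0.10 and -0.002 ± 0.18). Col8a1 of the same group had 1 probe higher, at 0.36, 0.62 and 0.45 (mean 0.47 ± 0.13), and 1 lower, at -0.80, -0.49 and -0.41 (mean -0.57 ± 0.21). The higher call was lost without array 2 or array 3, and the difference of 1.04 ± 0.16 passed the test (limma over all probe pairs, adjusted p = 0.00262).

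The 3 classes were set side by side on each array by the median of their probes there, which is not the median of the probe means given above. The fibrillar median was -0.31, -0.24 and -0.42, that of type IV -0.28, -0.32 and -0.26, and that of the other classes -0.02, -0.21 and -0.08. All 9 medians were negative. The fibrillar median minus that of type IV was -0.02, 0.08 and -0.16, a mean of -0.03 ± 0.12 (SD, n = 3), so its size was less than the spread between arrays. Fibrillar minus other was -0.28, -0.03 and -0.34 (mean -0.22 ± 0.16), and type IV minus other was -0.26, -0.11 and -0.18 (mean -0.18 ± 0.07), negative on every array. With only 3 arrays an exact sign-flip test of such differences cannot go below p = 0.25, and none was made. The fibrillar class was also reduced to 5 chains, Col1a1, Col1a2, Col3a1, Col5a1 and Col5a2, which leaves out Col5a3. The mean of its differences from type IV over the arrays then turned to 0.19. The median of the probe means of these 5 chains was -0.11.

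Probes of 1 collagen gene often disagreed, as did those of other genes on the array. Of the 17 genes with 2 or more probes, 3 (Col2a1, Col7a1 and Col23a1) were lower with every probe, which is 17.6%, and 0 were higher with every probe. Over all 5138 such genes on the array 8.58% were lower with every probe and 7.75% higher. A further 5 collagen genes (Col4a5, Col6a1, Col8a1, Col11a1 and Col25a1), or 29.4%, had probes called in both directions, against 21.9% of all such genes. The second Col7a1 call was lost without array 2 or array 3, and among the genes called both ways Col4a5 alone kept calls in both directions without each array. Of 36 pairs of probes of 1 collagen gene, 18 differed in limma's test of the difference, where 48.3% of all 9532 pairs did with all 3 arrays used. Without array 1, 19 collagen pairs (52.8%) differed against 58.8% of all pairs, without array 2, 14 (38.9%) against 31.5%, and without array 3, 13 (36.1%) against 22.2%. The collagen share thus lay on either side of that of all pairs, depending on the array left out. Pairs of 1 gene share a target and are not independent, and Col25a1, with 5 probes, gave more of the collagen pairs than any other gene.

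**Figure D3:**
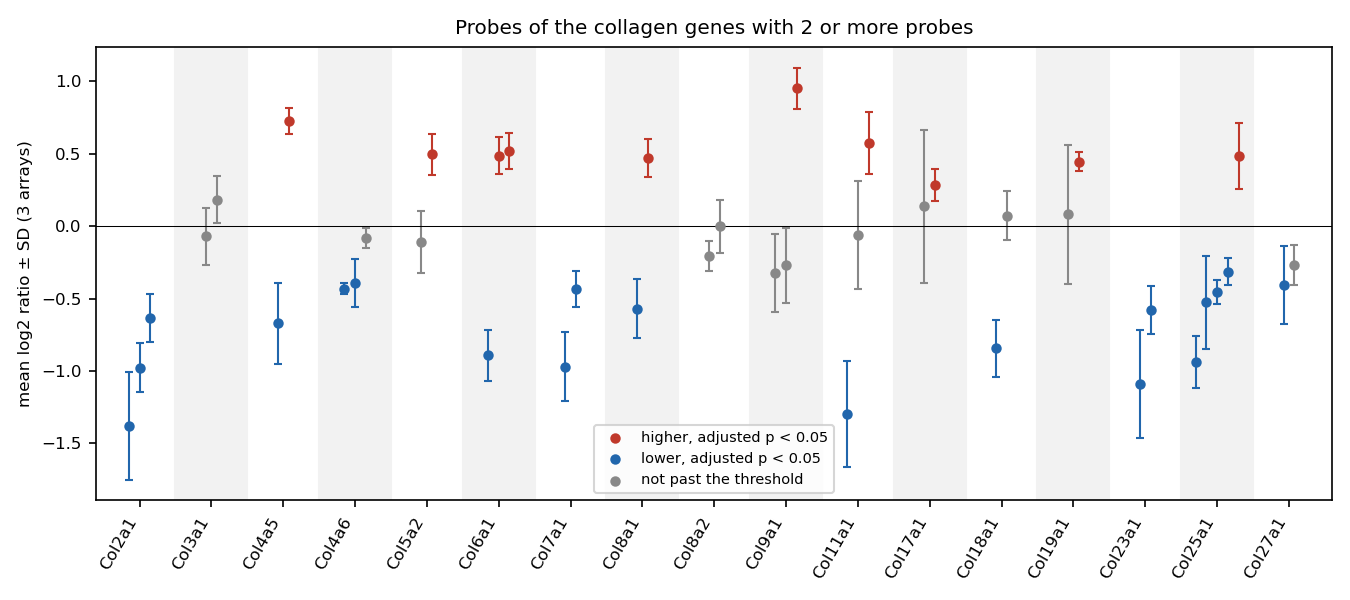
Mean log2 ratio ± SD over 3 arrays of each probe of the 17 collagen genes with 2 or more probes, coloured by call. All probes of Col2a1, Col7a1 and Col23a1 lie below 0, whereas Col4a5, Col6a1, Col8a1, Col11a1 and Col25a1 have called probes on both sides.

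Calls that held under the other settings were more often lower than higher among collagens. Of the 41 called probes, 21 kept sign and call without each array and under other centring, scaling and variance moderation. Of the 61 collagen probes, 16 (26.2%) were lower and 5 (8.2%) higher in this sense, against 11.3% and 17.5% of all probe rows; the share of lower ones was above, and that of higher ones below, the array as a whole, with no test of the difference. The higher ones were probes of Col4a5, Col5a3, Col9a1, Col9a2 and Col26a1. A plain one-sample test, which borrows no variance between rows, called 0 collagen probes after adjustment and 32 at an unadjusted p under 0.05.

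Genes that make and crosslink collagen went in both directions. Of 30 measured genes for chain hydroxylation, folding, export, propeptide removal and crosslinking, 13 were lower, 10 higher and 7 not called, where 55.8% of all rows of the gene fit were called. The list median was -0.14, against 0.02 over all rows of that fit. The 4 members of smallest p were lower. P4hb, the shared subunit of the prolyl 4-hydroxylases, had -1.17, -1.17 and -0.77 (mean -1.04 ± 0.23; limma, adjusted p = 0.0031). The cyclophilin Ppib (-0.90 ± 0.30), the prolyl isomerase Fkbp14 (-0.64 ± 0.16) and P3h4, a partner of lysyl hydroxylation (-0.60 ± 0.12), were lower too, and these calls held without each array. Of about the same adjusted p as the fourth of these (0.00532), the lysyl hydroxylase Plod3 was higher (0.53 ± 0.06; lost without array 3). Named after their values were seen, like Plod3, the hydroxylase subunit P4ha1 (0.53 ± 0.09), the collagen chaperone Serpinh1 (0.43 ± 0.13) and the crosslinking enzyme Lox (0.33 ± 0.10) were higher (limma, adjusted p = 0.00603, 0.0131 and 0.0263), but the calls of Serpinh1 and Lox were lost without array 2 or array 3. The counts of the list fell to 7 lower and 3 higher without array 2, and to 6 and 1 without array 3. Of all rows, these fits called 13.8% lower and 22.9% higher without array 2, and 10.6% and 16.7% without array 3.

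Receptors and binding partners of collagen were likewise mixed. In the gene fit, 24.1% of all rows were lower and 31.7% higher. Of 7 measured receptors, 2 were lower and 2 higher, with a median of -0.22. The integrin chains Itga2 and Itgb1, which pair into one of several collagen receptors, were lower: Itga2 had -1.40, -1.76 and -1.05 (mean -1.40 ± 0.35, 1 probe; limma, adjusted p = 0.00307) and Itgb1 -0.75, -0.86 and -0.80 (mean -0.80 ± 0.05, both probes negative; adjusted p = 0.00307). Itga11, which pairs with Itgb1 into another receptor (0.46 ± 0.06, with probes at -0.07 and 0.99), and the inhibitory immune receptor Lair1 (0.80 ± 0.65) were higher, each losing the call without array 3 and Lair1 also without array 2. The receptor kinases Ddr1 (-0.14 ± 0.07) and Ddr2 (-0.22 ± 0.20), named after their values were seen, were not called (adjusted p = 0.191 and 0.138). Of 16 collagen-binding matrix genes, 5 were lower and 1 higher, with a median of -0.13. Without array 2 or array 3, 1 was lower and 1 higher. Of all rows, these fits called 13.8% lower and 22.9% higher without array 2, and 10.6% and 16.7% without array 3. The higher one was asporin (Aspn, 1.06 ± 0.31), and Thbs1 (-0.51 ± 0.22), Thbs2 (-0.42 ± 0.10) and Comp (-0.36 ± 0.06) were the lower ones of smallest p. The fibril-bound proteoglycan gene decorin (Dcn), named after its values were seen, was at -0.03 ± 0.04, with 4 probes from -0.49 to 0.35 (limma, adjusted p = 0.739).

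Partners of type IV collagen in the basement membrane gave 2 higher and 1 lower of 8 measured, with a median of -0.12. Over all rows of the gene fit, 31.7% were higher and 24.1% lower. The linker genes Nid1 (0.71, 0.76 and 0.74; mean 0.74 ± 0.03) and Nid2 (0.69 ± 0.29, lost without array 3) were higher and the laminin chain Lamb2 was lower (-0.92 ± 0.40; limma, adjusted p = 0.00822). Among 9 genes of collagen degradation 3 were higher and 2 lower, with a median of -0.07. The collagenase Mmp13 (0.41 ± 0.07, with probes at -0.14 and 0.97), the membrane protease Mmp14 (0.27 ± 0.06) and the gelatinase Mmp9 (0.27 ± 0.07) were higher, but all 3 lost the call without array 3, and Mmp9 and Mmp14 whichever array was left out. The protease inhibitor Timp1 was lower at -0.58 ± 0.11 (adjusted p = 0.00532) and kept the call.

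**Figure D4:**
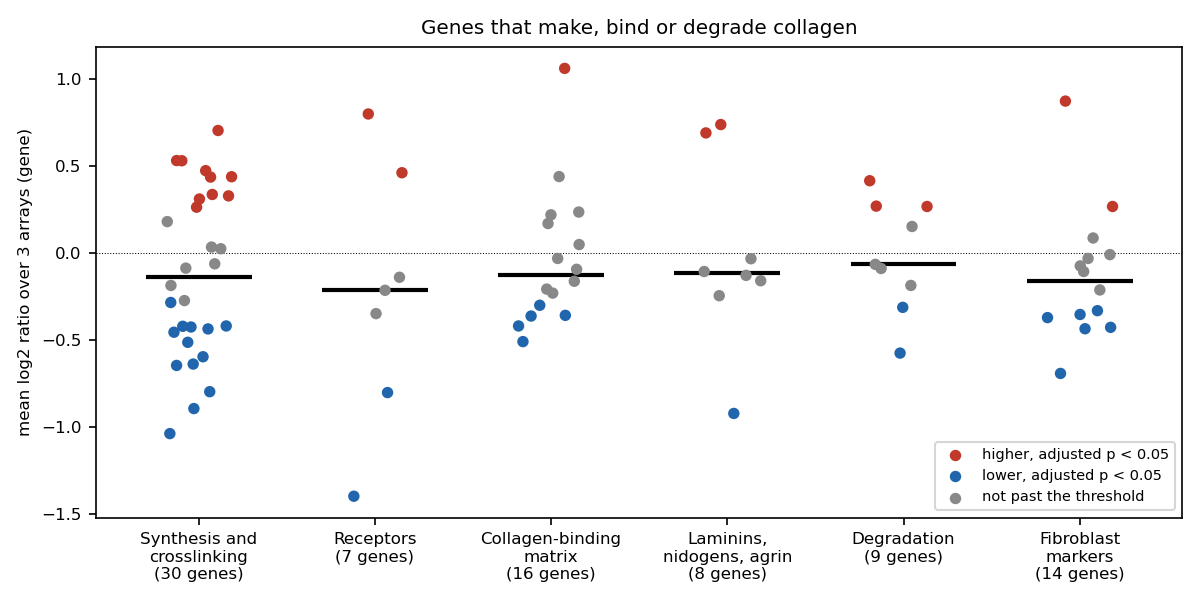
Mean log2 ratio over 3 arrays of genes that make, bind or degrade collagen and of fibroblast markers, averaged over probes of a gene, with the list median (bar). The medians run from -0.22 (receptors) to -0.07 (degradation), and each list has genes called in both directions.

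Markers of cell types that make collagen were measured beside it. Of 14 fibroblast markers other than collagens, 6 were lower and 2 higher, where 24.1% and 31.7% of all rows of the gene fit were, with medians of -0.18, -0.19 and -0.12 on the 3 arrays. The microfibril gene Mfap2 (-0.69 ± 0.20), the activated fibroblast protease Fap (-0.44 ± 0.07) and the receptor Pdgfrb (-0.43 ± 0.05) were lower, and the mesenchymal factor Tcf21 was higher (0.87 ± 0.57). Without array 3 Mfap2 was the only fibroblast marker still called, in a fit that called 16.7% of all rows higher and 10.6% lower. The fibroblast medians and the collagen medians were negative on all 3 arrays. So were those of skeletal muscle markers (-0.45, -0.32 and -0.33) and of smooth muscle and pericyte markers (-0.27, -0.13 and -0.17). The other cell type lists had a median above 0 on at least 1 array. The part of fibroblast content in the collagen ratios was not tested. Of 7 cartilage cell markers other than collagens, a list made after the collagen values were seen, 4 were higher and 2 lower (median 0.43), and all of these calls were lost without array 3. Hapln1 (0.996 ± 0.50) was higher and the cartilage proteoglycan Acan lower (-0.36 ± 0.11).

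Other cell types gave lists of both signs, where 31.7% of all rows of the gene fit were higher and 24.1% lower. Endothelial markers counted 4 higher and 3 lower of 10 (median 0.04), smooth muscle and pericyte markers 2 and 3 of 8 (-0.17), adipocyte markers 4 and 0 of 8 (0.39), macrophage markers 2 and 1 of 6 (0.20), skeletal muscle markers 1 and 5 of 7 (-0.37), luminal epithelial markers 3 and 3 of 9 (-0.01) and basal epithelial markers 1 and 1 of 5 (0.02). Leaving out array 3 moved these counts to 2 and 1 (endothelial), 1 and 1 (smooth muscle and pericyte), 3 and 0 (adipocyte), 1 and 1 (macrophage), 0 and 2 (skeletal muscle), 2 and 3 (luminal) and 1 and 0 (basal). The fit without array 3 called 16.7% of all rows higher and 10.6% lower. The luminal list holds Gata3 itself, the gene of the virus, as 1 of its 3 higher members. Its other members of smallest p were the keratins Krt18 (-1.24 ± 0.20) and Krt19 (-1.23 ± 0.37), which were lower, and the adhesion gene Cdh1 (0.80 ± 0.05), which was higher (limma, adjusted p = 0.00307, 0.00354 and 0.00307). Which cells gave the collagen RNA was not tested.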

How the data were processed

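RNA of GATA-3 tumors and of control tumors was set against each other on 3 arrays. The deposited values are log ratios taken as log2, 1 for each probe row and array; for the log base, the ratio's direction, the background correction and the normalization, the sources used here give nothing. Array medians in the authors' values were -0.02, -0.07 and -0.07. How bright a probe was is unknown, since no intensities were used here, and the number of arrays limits the precision.

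The median of each array was set to 0, and probes took their names from the platform annotation. In R 4.3.3, limma 3.58.1 tested the mean of each row (intercept only, eBayes, Benjamini-Hochberg over all rows, threshold 0.05). This was done over 38975 probe rows with 3 values (1 row lacked a value, no collagen) and over 31059 rows after averaging probes of a symbol; related genes and markers come from the latter. Differences between probes were fitted over all pairs of genes with 2 to 5 probes. The fit was also run on simulated ratios with independent noise, which do not cover a probe or dye effect that recurs on each array. Classes are those of the general literature.

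Members and lists were chosen with earlier results of these data known; the probe pair fit and the cartilage marker list were added last. Named were all collagens by rule, with array values for fibrillar and type IV chains and the largest ratios, and up to 4 genes of smallest p in each list. For some lists only part of these are given. Alternatives covered centring, scaling, missing values, variance moderation, the test, thresholds, the sign, the class definitions and each array left out. Promoter sequences are from RefSeq (GRCm38.p6).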

Additional observations from a re-analysis of the deposited data

How the results depend on the processing

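The count of 41 called collagen probes (16 higher, 25 lower) and that of 19 genes (6 and 13) stayed within 1.5 times under a robust eBayes, an adjusted p under 0.10, uncentred values, rows with only 2 values kept and arrays scaled to 1 spread. Leaving out 1 array gave 23 to 46 probes (6 to 16 higher, 17 to 30 lower) and 10 to 22 genes (3 to 7 and 7 to 15), fewest without array 3. The plain one-sample test left 0 probes and 0 genes, from 32 and 16 at an unadjusted p under 0.05. An absolute mean of at least 1 left 5 probes (1 higher, 4 lower) and 2 genes (1 and 1). Turning the sign swaps the directions by construction, to 25 and 16 probes and to 13 and 6 genes. It turns the class medians to 0.27 (fibrillar), 0.138 (type IV) and 0.175 (other) and their difference to 0.0337; it was not run for single probes. The fibrillar median moved to -0.107 with Col1a1, Col1a2, Col3a1, Col5a1 and Col5a2 alone. The type IV median moved to -0.192 in the deposited values and to between -0.243 and -0.228 with 1 array left out, and that of the other classes to -0.0168 over gene means. Fibrillar minus type IV ran from -0.0915 to 0.0295 with 1 array left out. It was 0.185 with the fibrillar class reduced to the chains just named, and the cause was not tested.

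Sign changes of single probes all concerned probes that were not called. In the deposited values Col10a1 went to -0.0403. With 1 array left out, probes ran from -0.015 to 0.0592 (Col10a1), -0.228 to 0.142 (Col11a1), -0.162 to 0.342 (Col17a1), -0.0238 to 0.127 (Col18a1), -0.195 to 0.238 (Col19a1), -0.157 to 0.0367 (Col3a1), -0.229 to 0.0405 (Col4a3), -0.243 to 0.108 (Col4a4) and -0.0565 to 0.104 (Col8a2). Of the 41 called probes, leaving out array 3, array 2 or array 1 lost 18, 13 and 1 calls. Each array combines a GATA-3 and a control channel in 1 ratio, so the test of the mean ratio against 0 is paired by array.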
